A study of Mus musculus with 32 samples.

Results

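Lox, Emilin1, Mfap2 and Mfap4 were described in mouse synovium, the soft lining tissue of joints, and in cartilage, a group of microfibril and collagen cross-linking genes. They were taken by symbol, with their synovium levels in the MMS, R1 and R2 groups relative to Control already known. They are 4 of the 2544 genes that appear in either deposited table. All 4 were among the 1178 genes of the synovium table, and Mfap2 alone was among the 1606 genes of the cartilage table. RNA was sequenced from tissue of C57BL/6 mice, either Control or in the MMS model at the times labelled D3, D7 and D14, and in the groups labelled R1 and R2. Each of these 6 groups had 3 synovium samples. Cartilage had the same groups and an added MMS D28 group, with 2 samples in each. What MMS, R1, R2 and the unit of D stand for is not spelled out, and no time is given for R1 and R2. A rise or fall between MMS and R groups thus means a difference only. The labels give no age, sex or genotype. They do not state that replicates came from separate animals, so p-values measure only the spread between these samples, which may be technical.

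Microfibrils are fibrillin-based filaments of the extracellular matrix that carry elastin and hold latent TGF-beta. Lox encodes lysyl oxidase, a secreted copper enzyme that oxidises lysines in collagen and elastin so that the fibres can cross-link. Mfap2 encodes a small glycoprotein that binds fibrillin, Mfap4 encodes a fibrinogen-domain glycoprotein found with microfibrils and elastic fibres, and Emilin1 encodes a glycoprotein at the interface of elastin and microfibrils. In connective tissues such as synovium these proteins are made mainly by fibroblasts.

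On GRCm38, which is mm10, Emilin1 lies on chromosome 5 at 30913402 to 30921277, Mfap2 on chromosome 4 at 141010418 to 141015984 and Mfap4 on chromosome 11 at 61485431 to 61488900, all on the plus strand. Lox is annotated on the minus strand. These are whole-gene intervals in GENCODE vM21, and the values count reads over each gene. An antisense gene overlaps Lox and the minus-strand gene Mapk7 overlaps 89 bases of Mfap4. Whether counting used strand is not given in the sources used here, so reads of such overlaps cannot be told apart.

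The 244 bases before the first annotated exon of Mfap2 are shown because Mfap2 is the member measured in both tissues and the one still overlapping Control in MMS D3. The sequence is from the RefSeq promoter table on GRCm38.p6, chr4:141010174-141010417 on the plus strand, and the capitals mark a match to GGAATG, the TEAD motif.
Mfap2: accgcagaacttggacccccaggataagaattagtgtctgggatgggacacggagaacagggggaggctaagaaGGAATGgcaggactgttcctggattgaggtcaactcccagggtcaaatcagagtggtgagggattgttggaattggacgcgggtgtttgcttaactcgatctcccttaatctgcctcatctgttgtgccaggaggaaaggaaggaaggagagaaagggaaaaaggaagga
Both strands of the 250 bases before each start were searched for the AP-1 motif TGANTCA, the TEAD motif GGAATG, the TBP motif TATAAA and the hypoxia response motif NACGTG. Among 32851 such windows, 6.75%, 12.6%, 12.4% and 16.5% held the respective motif. Mfap2 held the 1 GGAATG match and no match to the other motifs, which is a description of letters and not of a binding site. The Emilin1 window, which lies in annotated 5′ UTR and is not printed, held none of the motifs.

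Replicate 3 of every synovium group except R1 stood apart. Gm2023, a predicted gene, was at 1.71 to 3.36 FPKM in these 5 libraries and at 12.59 to 56.19 FPKM in the other 13, a split at 5 FPKM made after the values were seen. Mfap2 and Mfap4 were each the lowest of their group in 5 of the 5 libraries. Emilin1 was lowest in 3 of them and highest in 1, and Lox was lowest in 1 and highest in 2. Where a member's call changed without these libraries, both values are given. The part of these libraries in the results was not tested. Depth is unknown, since the tables hold normalised values without read totals.

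Lox was high at every MMS time in synovium and lower in R1 and R2. Its Control samples were at 15.87, 15.99 and 19.64 FPKM. The MMS D3 samples were at 189.54, 137.31 and 183.79 FPKM, those of MMS D7 at 149.89, 121.19 and 199.48 FPKM, and those of MMS D14 at 166.92, 137.98 and 151.81 FPKM. All 9 MMS samples lay above every Control sample, and the 3 MMS groups overlapped one another. The R1 samples were at 24.24, 33.79 and 23.57 FPKM and the R2 samples at 26.19, 27.79 and 25.73 FPKM. Both groups lay above Control and below all MMS samples. The means were 17.2 ± 2.14 FPKM in Control, then 170.2 ± 28.6, 157 ± 39.6 and 152 ± 14.5 at the 3 MMS times, 27.2 ± 5.72 for R1 and 26.6 ± 1.08 for R2 (SD, n = 3 each).

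Emilin1 had the same low, high, low order as Lox, with a smaller range. Control samples were at 15.45, 15.89 and 12.29 FPKM. The MMS D3 samples were at 69.76, 41.48 and 34.24 FPKM, those of MMS D7 at 50.55, 44.87 and 74.05 FPKM, and those of MMS D14 at 65.22, 71.67 and 69.1 FPKM. Each MMS sample lay above every Control, R1 and R2 sample, and the MMS D14 samples were the closest together. The R1 samples were at 23.12, 25.62 and 22.39 FPKM and the R2 samples at 26.55, 25.31 and 19.34 FPKM, which did not reach down to Control. Mean levels were 14.5 ± 1.96 FPKM in Control, 48.5 ± 18.8, 56.5 ± 15.5 and 68.7 ± 3.25 at the 3 MMS times, 23.7 ± 1.69 for R1 and 23.7 ± 3.85 for R2 (SD, n = 3 each).

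Mfap2 was still near Control in MMS D3, was higher in each later MMS group, and was also high in R1 and R2. Its Control samples were at 17.76, 21.55 and 15.39 FPKM and its MMS D3 samples at 22.2, 33.18 and 19.47 FPKM, so these groups overlapped. Without replicate 3 of each group, which stood apart, they did not overlap. The MMS D7 samples were at 63.2, 41.14 and 39.91 FPKM and the MMS D14 samples at 83.51, 105.34 and 80.88 FPKM. All 3 samples of each group lay above those of the group before. The R1 samples were at 92.63, 68.57 and 80.13 FPKM and the R2 samples at 89.51, 87.22 and 59.49 FPKM, which overlapped MMS D14. Mean levels were 18.2 ± 3.11 FPKM in Control, 48.1 ± 13.1 and 89.9 ± 13.4 in MMS D7 and MMS D14, 80.4 ± 12.0 for R1 and 78.7 ± 16.7 for R2 (SD, n = 3 each).

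Mfap4 had the lowest Control level of the 4 genes and the largest ratio of its MMS D14 mean to its Control mean. Its Control samples were at 8.02, 5.78 and 4.93 FPKM and its MMS D3 samples at 41.3, 46.52 and 17.22 FPKM. The MMS D7 samples were at 102.9, 66.72 and 54.59 FPKM and the MMS D14 samples at 129.16, 136.19 and 78.22 FPKM. All MMS samples lay above Control, and the third sample of each MMS group was the lowest. The R1 samples were at 90.2, 69.94 and 54.89 FPKM and the R2 samples at 78, 91.66 and 32.67 FPKM. R1 and R2 lay above Control, and both overlapped MMS D7 and MMS D14. Mean levels were 6.24 ± 1.60 FPKM in Control, 35.0 ± 15.6, 74.7 ± 25.1 and 114.5 ± 31.6 at the 3 MMS times, 71.7 ± 17.7 for R1 and 67.4 ± 30.9 for R2 (SD, n = 3 each).

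**Figure D1:**
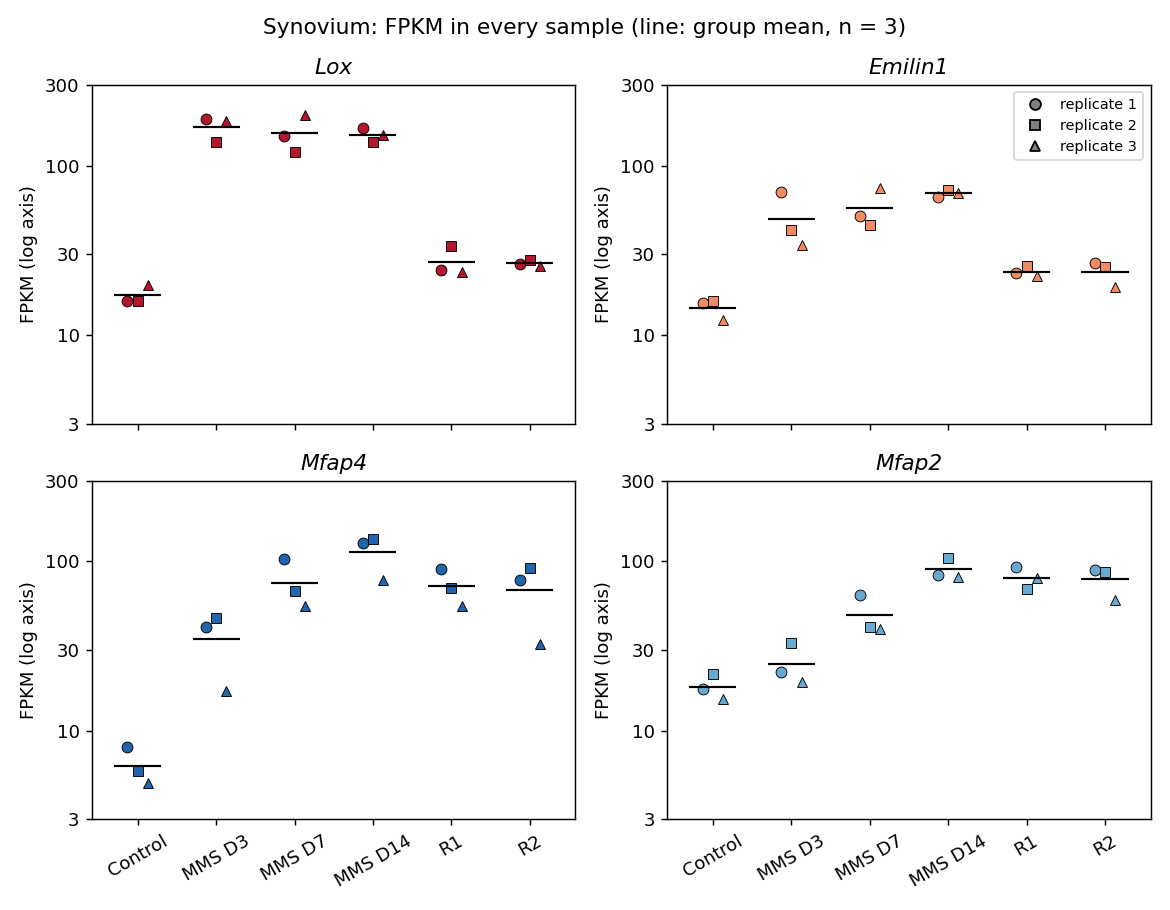
FPKM (log axis) of Lox, Emilin1, Mfap4 and Mfap2 in each synovium sample by group; circles, squares and triangles are replicates 1, 2 and 3, and lines are group means (n = 3). Lox and Emilin1 are highest in the MMS groups, while Mfap2 and Mfap4 are also high in R1 and R2.

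The differences from Control are descriptions without a test, because the members were chosen with them known. On the log2(FPKM + 1) scale, Lox was higher by 3.23, 3.10 and 3.08 at MMS D3, MMS D7 and MMS D14, and by 0.62 for R1 and 0.61 for R2 (SE 0.19 each). Emilin1 was higher by 1.61, 1.86 and 2.17 in MMS D3, MMS D7 and MMS D14, and by 0.67 in both R1 and R2 (SE 0.23 each). Mfap4 was higher by 2.22, 3.36 and 3.98 at these times, and by 3.32 in R1 and 3.14 in R2 (SE 0.39 each). The Mfap2 differences were 0.41, 1.33 and 2.24 at these times, then 2.08 in R1 and 2.04 in R2 (SE 0.23 each). In MMS D3, 3 of the 4 genes lay wholly above Control, against 16.5% of all genes of the table. In the other 4 groups all 4 did, against 24.8% of all genes for MMS D7, 27.3% for MMS D14, 21.8% for R1 and 18.6% for R2. Nothing is read from these counts, since the choice of members fixed them. The table was itself selected, with 98.0% of its genes at least 1.5-fold apart between MMS D14 and Control.

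**Figure D2:**
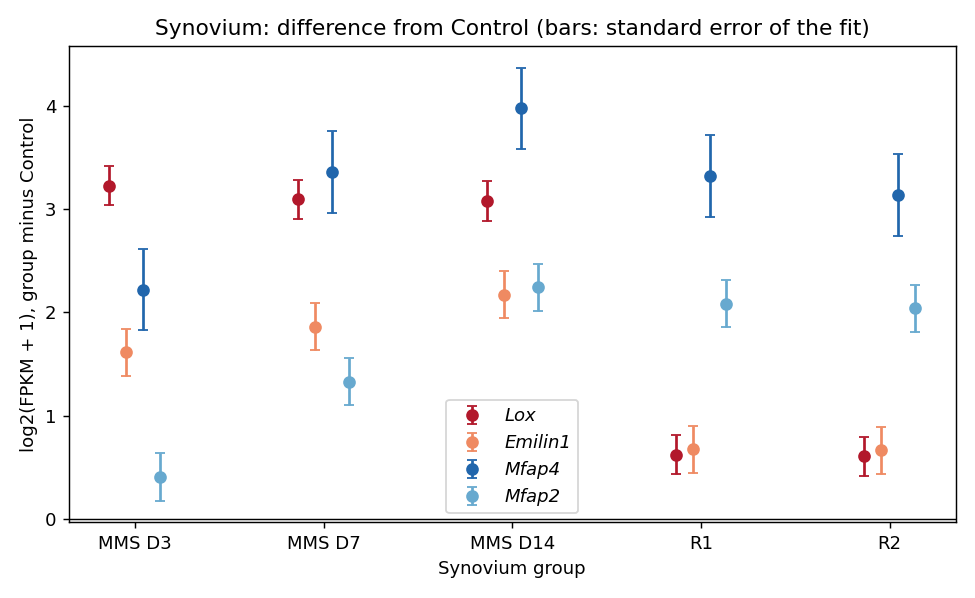
Difference from Control in synovium, log2(FPKM + 1), for each gene by group; points are differences and bars the standard error of the fit. Lox is at 3.08 to 3.23 in the MMS groups and at 0.62 and 0.61 in R1 and R2, while Mfap2 is at 2.08 and 2.04 there.

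The order of the group means differed between the genes. For Lox it ran Control, R2, R1, MMS D14, MMS D7, MMS D3, with non-overlapping neighbours only at Control and R2 and at R1 and MMS D14. For Emilin1 it ran Control, R1, R2, MMS D3, MMS D7, MMS D14, with non-overlapping neighbours only at Control and R1 and at R2 and MMS D3. For Mfap2, Control and MMS D3 overlapped, MMS D3 and MMS D7 did not, and from MMS D7 upward the order R2, R1, MMS D14 had overlapping neighbours. For Mfap4, Control stood below MMS D3, and above it R2, R1, MMS D7 and MMS D14 followed with overlapping neighbours.

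From MMS D3 to MMS D7, Mfap2 and Mfap4 rose, and Lox and Emilin1 did not pass the test. Each tissue was fitted in limma with all genes, and an adjusted p (Benjamini-Hochberg) under 0.05 was called. The synovium differences between MMS and R groups follow from those with Control, known when the members were chosen. Their calls are thus no independent support. Mfap2 rose by 0.92 (log2, 95% interval 0.44 to 1.41, adjusted p = 0.00887) and Mfap4 by 1.14 (0.31 to 1.97, adjusted p = 0.0386). The Emilin1 difference was 0.25 (−0.23 to 0.73, adjusted p = 0.380) and the Lox difference −0.13 (−0.53 to 0.27, adjusted p = 0.574). The 2 members called higher compare with 12.1% of all genes called higher. The Mfap4 call was lost without MMS D3 replicate 3 (adjusted p = 0.203) or without any of the MMS D7 replicates (0.0547 to 0.134). The Mfap2 call was lost without MMS D3 replicate 3 (adjusted p = 0.0504). Emilin1 passed, at 0.54, without MMS D3 replicate 1 (adjusted p = 0.0366), and was at −0.17 without the 5 libraries that stood apart (adjusted p = 0.535).

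From MMS D7 to MMS D14, Mfap2 rose again. Its difference was 0.91 (0.43 to 1.39, adjusted p = 0.00548, limma), and 12.6% of all genes were called higher. Mfap4 differed by 0.62 (−0.21 to 1.45, adjusted p = 0.173), Emilin1 by 0.31 (adjusted p = 0.232) and Lox by −0.02 (adjusted p = 0.932), and these did not pass. With the 5 libraries that stood apart removed, the Mfap4 difference was 0.67 and passed (adjusted p = 0.0244), and the Emilin1 difference was 0.51 and passed too (adjusted p = 0.0307).

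Lox and Emilin1 fell between MMS D14 and both R groups, and Mfap2 and Mfap4 did not pass the test there. Lox fell by 2.46 on the log2 scale in R1 (95% interval −2.86 to −2.06, adjusted p = 4.28e-07, limma) and differed by −2.47 in R2 (adjusted p = 1.99e-07). Emilin1 fell by 1.50 in R1 (−1.98 to −1.02, adjusted p = 3.65e-05) and by 1.51 in R2 (adjusted p = 3.02e-05). All 3 samples of each R group lay below all 3 MMS D14 samples for both genes, which held for 26.0% of all genes in R1 and 25.0% in R2. The 2 members called lower compare with 25.8% of all genes called lower in R1 and 25.5% in R2. These comparisons share the MMS D14 samples on which the table and the members had been chosen.

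The Mfap2 differences from MMS D14 were −0.16 in R1 (−0.64 to 0.32, adjusted p = 0.502) and −0.20 in R2 (−0.69 to 0.28, adjusted p = 0.397). The intervals allow a fall of up to 0.64 and 0.69. The Mfap4 differences were −0.66 in R1 (−1.49 to 0.17, adjusted p = 0.121) and −0.84 in R2 (adjusted p = 0.0535). Without the 5 libraries that stood apart, Mfap4 was lower by 0.91 in R1 (adjusted p = 0.00196) and by 0.64 in R2 (adjusted p = 0.0249), and passed in both. With a term for those libraries the Mfap4 values were −0.95 (adjusted p = 0.00147) and −0.84 (adjusted p = 0.00293). A replicate block in limma called Mfap4 lower in both too (adjusted p = 0.0113 in R1 and 0.00238 in R2). Centring each sample on its median, which moves the median of all genes from 0.65 to 0.31 in R1 and from 0.64 to 0.33 in R2, also called Mfap4 lower in both, by 0.99 in R1 (adjusted p = 0.0360) and by 1.14 in R2 (adjusted p = 0.0172). It called Mfap2 lower in R2, at −0.51 (adjusted p = 0.0442). Mfap4 in R2 also passed without MMS D14 replicate 3 (−1.09, adjusted p = 0.0257), R2 replicate 1 (−1.01, adjusted p = 0.0427) or R2 replicate 2 (−1.12, adjusted p = 0.0230).

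Between R1 and R2 none of the 4 genes passed (adjusted p 0.980 to 0.997). limma called 0 of 1178 genes (0%) in this comparison, and 52 had an unadjusted p under 0.05.

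The share of the MMS D14 excess over Control present in R1 and R2 put the differences on 1 scale. For Lox it was 7.43% in R1 and 6.96% in R2, and for Emilin1 16.9% and 17.0%. For Mfap4 it was 60.4% and 56.5%, and for Mfap2 86.8% and 84.4%. Among the 312 genes at least 2-fold higher in MMS D14, the median was 20.2% in R1 and 20.6% in R2. The 25 other matrix genes among these ranged from 7.63% to 49.3% in R1 and from 9.68% to 44.4% in R2, so Mfap2 and Mfap4 lay above their range. These shares rest on the same Control and MMS D14 samples for every gene and carry no test. The members were picked with their R and MMS levels known, so their rank is no independent support. R1 had no library that stood apart, while Control, MMS D14 and R2 did. For Mfap4 that library was at 78.22 FPKM in MMS D14 and 32.67 in R2, beside means of 132.68 and 84.83 for the others. The low MMS D14 value raises the R1 share, so the lead of Mfap4 there may be overstated. Shares without these libraries were not computed.

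**Figure D3:**
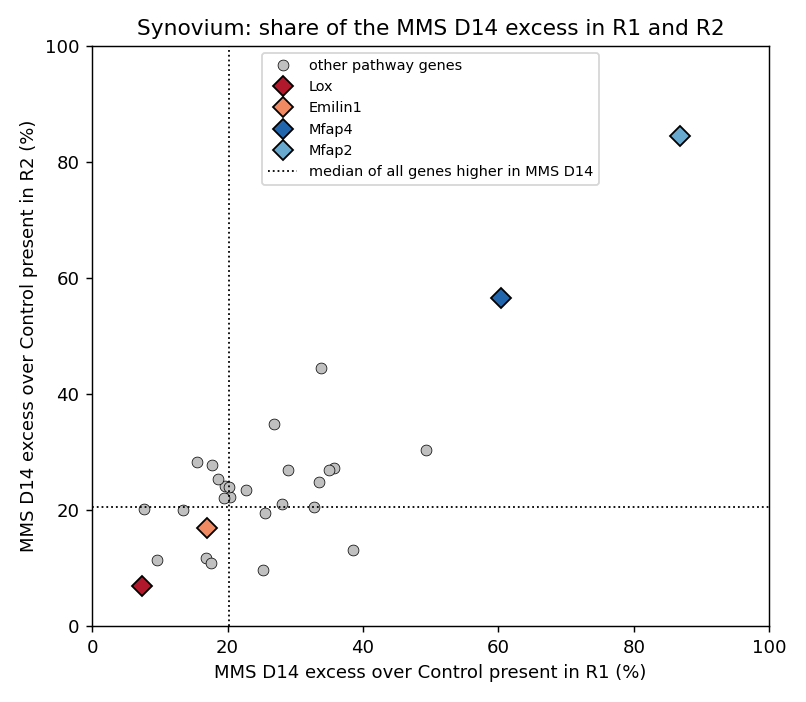
Share of the MMS D14 excess over Control present in R1 (horizontal axis, percent) and in R2 (vertical axis, percent); diamonds are the 4 genes, grey circles the 25 other matrix genes, and dotted lines the medians of the 312 genes at least 2-fold higher in MMS D14. Mfap2 and Mfap4 lie above and to the right of all grey circles, with the libraries that stood apart included.

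Across the 18 synovium samples Pearson correlation of log2(FPKM + 1) was highest for Lox with Emilin1, at 0.92, and Mfap2 with Mfap4, at 0.87. Emilin1 correlated with Mfap4 at 0.66 and with Mfap2 at 0.31. Lox correlated with Mfap4 at 0.46 and with Mfap2 at 0.05. As deviations from group means, the first pair correlated at 0.42 and the second at 0.77. The 5 libraries that stood apart, low in both Mfap2 and Mfap4, are part of that second value. The samples share their groups and libraries, so these are descriptions.

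The genes with the closest pattern over those samples were Slc39a14 (0.966), Gfra1 (0.960) and Fkbp11 (0.957) for Lox. For Emilin1 they were Loxl3 (0.980), a lysyl oxidase-like enzyme, Fbln2 (0.977), a fibulin of elastic fibres, and Csrp2 (0.970). For Mfap2 they were Mmp2 (0.953), a gelatinase that cleaves collagen, Angptl1 (0.935) and Ssc5d (0.929). For Mfap4 they were Cacnb3 (0.951), Scarf2 (0.946) and Cercam (0.944). In cartilage, over 14 samples, Mfap2 was closest to Mmp2 (0.945), Cpxm1 (0.922) and Cthrc1 (0.914), so Mmp2 ranked highest for Mfap2 in both tissues.

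The other genes of the pathway were read from a list of lysyl oxidases, fibrillins, fibulins, microfibril proteins, collagens and the enzymes that modify them. The list also held proteoglycans of fibril assembly, a transglutaminase and a family of TGF-beta genes that counts Ctgf. The synovium table held 30 genes of the list besides the members. In MMS D3, 15 were called higher and 3 lower than Control (limma), against 16.3% and 39.6% of all genes. In MMS D7 the counts were 25 and 4 (24.1% and 61.6% of all genes), and in MMS D14 25 and 5 (27.7% and 69.3%). In R1 they were 20 and 2 (15.9% and 45.2%), and in R2 18 and 1 (15.7% and 45.1%). The list's median log2 difference was 0.47, 1.37, 1.76, 0.73 and 0.67 in these groups, and that of all genes −0.34, −0.65, −1.08, −0.38 and −0.38. The MMS D14 calls are partly given by how the table was selected.

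Against MMS D14, 24 of the 30 were called lower in R1 and 25 in R2, and 5 were called higher in each, where 63.2% of all genes were called higher in R1 and 63.0% in R2. Their median difference was −1.07 in R1 and −1.05 in R2, beside 0.65 and 0.64 for all genes. Lox and Emilin1 moved in the direction of most of this list, and the values of Mfap2 and Mfap4 were nearer 0.

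The measured lysyl oxidase relatives were Loxl2 and Loxl3. Loxl3, which cross-links collagen, was higher than Control by 1.57 in MMS D3 (adjusted p = 5.62e-05, limma), while Loxl2, a related enzyme of collagen cross-linking, had a difference of −0.36 there (adjusted p = 0.224). Both were called higher in MMS D7 and MMS D14, where 24.1% and 27.7% of all genes were. In R1 against MMS D14, Loxl3 fell by 1.15 (adjusted p = 0.000249), and Loxl2 was at −0.52 without passing (adjusted p = 0.0599). Among the 25 other matrix genes, Loxl2 had the highest share of the MMS D14 excess in R1, 49.3%.

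Of the 3 fibrillin and latent TGF-beta binding genes, all were called higher in MMS D7 and MMS D14 (24.1% and 27.7% of all genes). Fbn1, fibrillin-1, the main microfibril backbone protein, was higher by 1.13 in MMS D7 (adjusted p = 0.000155, limma) and fell by 1.03 between MMS D14 and R1 (adjusted p = 0.000365). Ltbp2, an elastic-fibre-associated protein of this family, was higher than Control by 1.42 in MMS D3 (adjusted p = 0.00595). Fbln2 was higher by 1.76 in MMS D3 (adjusted p = 1.06e-05) and Efemp2, a fibulin that binds lysyl oxidase, by 0.81 (adjusted p = 0.00494). Tnxb, tenascin-X, moved the other way: it was lower by 0.95 in MMS D3 (adjusted p = 0.00464), and rose by 1.32 from MMS D14 to R1 (adjusted p = 0.000182).

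The 6 measured genes that modify and fold collagen chains were all called higher in MMS D7 and MMS D14, and all 6 in R1. Of all genes, 24.1%, 27.7% and 15.9% were called higher in these groups. The calls in MMS D14 are partly given by how the table was selected. Plod2, which hydroxylates the lysines used in cross-links, was higher by 0.81 in MMS D3 (adjusted p = 0.00719, limma), 1.84 in MMS D7 and 2.57 in MMS D14, and fell by 1.41 from there to R1. Among fibrillar collagens, all 6 were called higher in MMS D7. Col1a1 was higher by 0.96 in MMS D3, 2.19 in MMS D7 and 2.83 in MMS D14. Ctgf and Tgm2, a transglutaminase, were lower in MMS D14, by 0.60 and 1.06 respectively, and Ctgf was higher than Control by 0.78 in R1.

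**Figure D4:**
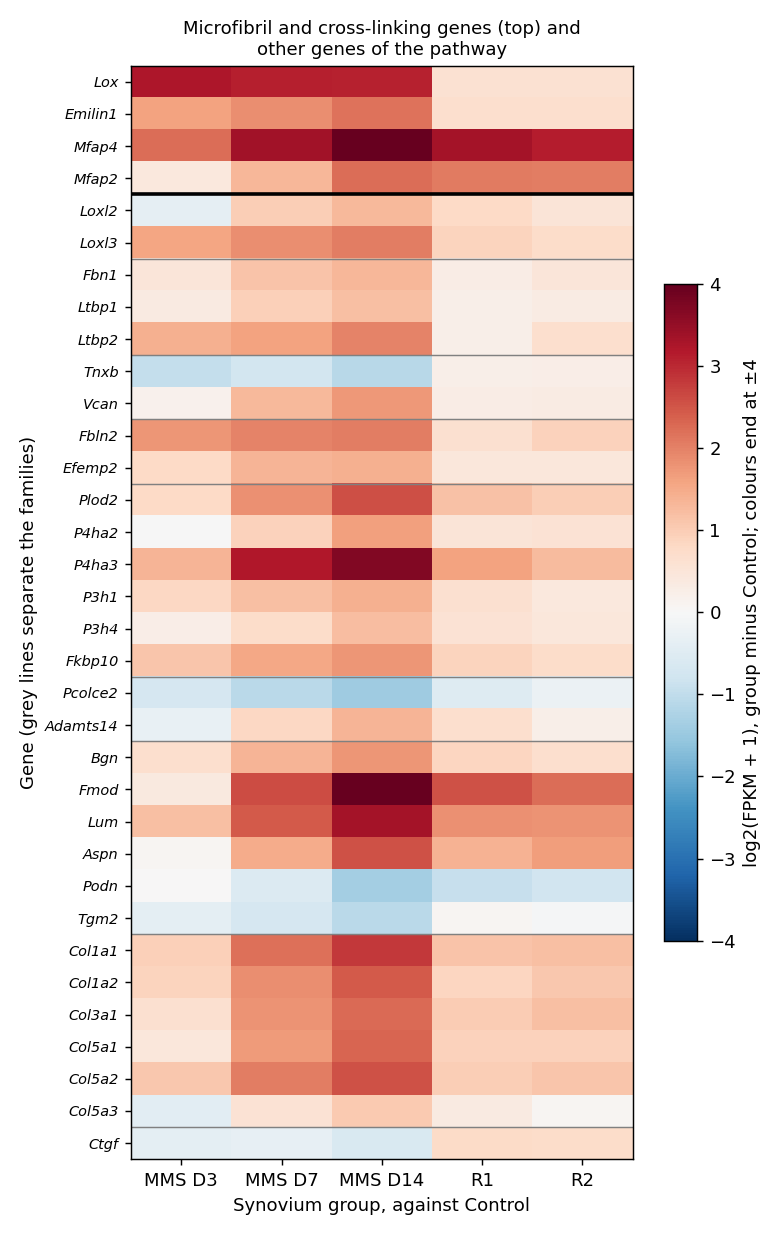
Log2 difference from Control in synovium for the 4 genes and the 30 other matrix genes by group; red is higher, blue lower, and the colours end at ±4. Lox is red at every MMS time and pale in R1 and R2, whereas Mfap2 is pale in MMS D3 and red in the other groups.

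Cell type markers moved with the groups. Fat cell markers, 10 of 10 measured, summed to 26766 to 32086 FPKM in Control and 4623 to 7570 in MMS D14, with 13318 to 15080 for R1 and 13132 to 15087 for R2. The only measured gene of the 10 on the fibroblast list, Fap, was at 22.55 to 30.65 FPKM in Control, 62.6 to 107.6 in MMS D14, 46.55 to 52.59 for R1 and 50.82 to 72.57 for R2. Of 5 markers of the synovial lining, 4 were measured, and their sum ran from 599.6 to 768.69 FPKM in Control and from 326.65 to 419.01 in MMS D14. It was higher in the R groups, at 1097 to 1391 for R1 and 908.51 to 1870 for R2, where replicate 3 held the highest sum. Htra4 held much of that sum, with means of 287 FPKM in Control, 748 in R1 and 743 in R2. Its R1 samples, at 592.73 to 828.58 FPKM, lay above those of Control, at 215.05 to 400.67. The R2 mean rested on 1 sample at 1458.9 FPKM. The R2 median was 408.49 and the lowest R2 sample, 361.77, lay within the Control range. Hbegf was higher in both R groups, with means of 162, 268 and 294 FPKM in Control, R1 and R2. Clic5 (123, 140 and 109 FPKM) and Tspan15 (106, 116 and 95.1 FPKM) were near Control in R1 and R2. No marker of macrophages or neutrophils was among the genes of the synovium table. Their part in the results was not tested, and in such bulk samples fewer cells of a type and less RNA per cell cannot be told apart.

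In cartilage Mfap2 rose in MMS D14 and passed in no other group tested against Control. The unit of the cartilage values is not stated, so they are called signal and are not set beside synovium levels. The Control samples were at 7.46 and 7.86, those of MMS D3 at 5.73 and 4.65, and those of MMS D7 at 8.34 and 7.65. The MMS D14 samples were at 17.77 and 20.44, above all Control, MMS D3, MMS D7, R1 and MMS D28 samples. The MMS D28 samples lay at 6.56 and 17.13 and the R2 samples at 19.1 and 8.17, each pair far apart, while R1 was at 7.19 and 6.72.

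MMS D14 was higher than Control by 1.21 on the log2(signal + 1) scale (95% interval 0.42 to 2.01, adjusted p = 0.0153, limma), where 25.5% of all genes were called higher. This call was lost without Control replicate 1 (adjusted p = 0.0679) and without MMS D14 replicate 2 (adjusted p = 0.0846). The other differences from Control did not pass. They were −0.49 in MMS D3 (adjusted p = 0.358), 0.05 in MMS D7 (0.940), −0.12 in R1 (0.760) and 0.65 in R2 (0.398). For MMS D28 the difference was 0.44 with overlapping samples, given without a test because the table was selected on it. Against MMS D14, MMS D28 differed by −0.78 (adjusted p = 0.125), and without MMS D28 replicate 2 by −1.41, which passed (adjusted p = 0.0100). R1 and R2 differed from MMS D28 by −0.56 (adjusted p = 0.336) and 0.21 (adjusted p = 0.588), and R2 from R1 by 0.77 (adjusted p = 0.109). Without MMS D28 replicate 2 the R2 difference from MMS D28 was 0.84 (adjusted p = 0.0340), and without R2 replicate 2 that from R1 was 1.34 (adjusted p = 0.0247). Both then passed, with a lone sample left in that group and assumed to vary like the others.

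Within groups, the deviations of Mfap2 from the group mean correlated positively with those of 24 of the 30 other pathway-list genes in cartilage. The median r was 0.58 over 14 samples, a description, since each group has 2 mirror-image deviations. Emilin2, at −0.57, and Tgfbi, a matrix protein induced by TGF-beta, at −0.44, were among the 6 without a positive correlation. Col3a1, a collagen of soft tissue, was at 94.18 and 334.82 in the MMS D28 samples and at 257.84 and 150.48 in those of R2. Lum, a fibril-binding proteoglycan, was at 84.5 and 292.54, then at 231.14 and 128.59. In both groups the sample with the higher Mfap2 also had the higher Col3a1 and Lum. The summed chondrocyte markers of the same samples were 638 and 1058, then 2089 and 1774, and the summed markers of bone-forming cells 2020 and 3372, then 8452 and 5595. The 8 neutrophil markers, all measured, ran opposite to Mfap2 in both groups, with sums of 64117 and 48692 in MMS D28 and 32000 and 40659 in R2. Mean marker sums also differed between Control and MMS D14, the groups of the called rise. They were 1867 and 949 for chondrocytes, 5706 and 4332 for bone-forming cells and 31201 and 41318 for neutrophils. Fibroblast markers, 4 of 10 measured, had mean sums of 162 and 333. The part of these cell types in the Mfap2 values was not tested.

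**Figure D5:**
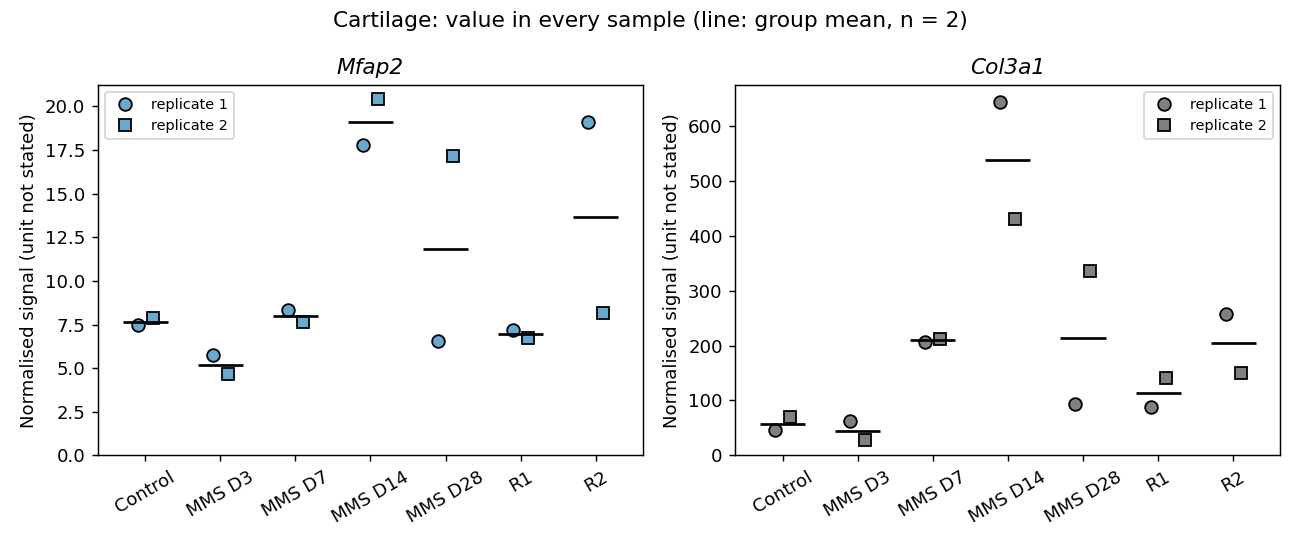
Signal of Mfap2 (left) and Col3a1 (right) in each cartilage sample by group; circles are replicate 1, squares replicate 2 and lines group means (n = 2). Both MMS D14 samples are high, and in MMS D28 and R2 the sample with the higher Mfap2 also has the higher Col3a1.

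The cartilage table held 30 other genes of the pathway list. Called higher and lower than Control were 2 and 2 in MMS D3 (limma, against 12.9% and 11.0% of all genes), 3 and 1 in MMS D7 (6.79% and 15.6%), and 7 and 7 in MMS D14, together 14 of 30 where 53.5% of all genes were called. In R1 they were 2 and 16 (36.0% and 33.3%), in R2 0 and 0 (0.0623% and 0.685%), and in MMS D28 5 and 23 (42.7% and 54.6%). The MMS D28 calls are largely given by how the table was selected. Of its genes, 99.0% were at least 1.5-fold apart between MMS D28 and Control. R2 against Control called 12 of 1606 genes, and 251 had an unadjusted p under 0.05. Emilin2, a relative of Emilin1, rose by 0.54 in MMS D14 (adjusted p = 0.0186) and by 0.87 in R1 (adjusted p = 0.00285). Loxl4, a relative of Lox, was lower by 0.85 in R1 (adjusted p = 0.00602) and had a difference of −0.34 in MMS D14 (adjusted p = 0.165).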

How the data were processed

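RNA was extracted with Trizol and libraries were made at BGI, per the labels' protocols, and the submitters' processing notes name HISAT2 and mm10. The authors deposited synovium values as FPKM per the file headers, and cartilage values as a signal, deposited as normalised values of unnamed unit. The rule by which genes were selected for the tables is not given in the sources used here. Values were taken as log2(value + 1) and fitted per tissue, all groups together, in limma 3.58.1 (R 4.3.3) with a variance trend, and the script was tested on simulated data. P-values were adjusted by Benjamini-Hochberg over all genes of a table. No gene failed the filter on low values, which asked for 1 or more in a number of samples equal to the smallest group. A fold on this scale understates changes of low genes.

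The members, lists and comparisons were chosen with earlier results of these data known. Besides the members, the text names at most 4 genes per family of the pathway list, those with the highest mean, and the 3 genes most correlated with each member. Gm2023 was named after its values were seen. No label ties a replicate number to an animal or batch, so the main fit used no pairing. Same-numbered replicates correlated at −0.165 to 0.661 in synovium (median 0.13) and −0.508 to 0.422 in cartilage (median −0.093), which does not settle whether they are related. Alternatives were other pseudocounts, no filter, median centring, fits of 2 groups, a replicate block and leaving out each replicate. Leaving out, or adding a term for, the 5 libraries that stood apart was chosen after seeing the data.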

Additional observations from a re-analysis of the deposited data

Results flagged for a closer look

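These results differ between groups by a test of the difference itself, as log2 differences called in limma in synovium. They follow from the differences from Control, which were known when the members were chosen, so the calls are no independent support. Mfap2 was higher in MMS D7 than in MMS D3 by 0.92, and Mfap4 by 1.14. Mfap2 was higher in MMS D14 than in MMS D7 by 0.91. Lox differed between R1 and MMS D14 by −2.46 and between R2 and MMS D14 by −2.47. Emilin1 differed by −1.50 and −1.51 in the same comparisons.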

How the results depend on the processing

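The falls of Lox and Emilin1 from MMS D14 to R1 and R2 passed under every alternative run (adjusted p 3.25e-07 to 7.65e-05 for Lox and 1.30e-05 to 0.000319 for Emilin1 in R1, limma). Depth is unknown and 2 or 3 samples a group limit the precision.

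The members lying wholly above Control in MMS D3, 3 of 4, became 3 to 4 when 1 replicate was left out. The members called between MMS D7 and MMS D3, 2 of 4, became 0 with a fit of the 2 groups alone and 0 to 3 when 1 replicate was left out. Between MMS D14 and MMS D7 the 1 called became 2 with a replicate block, 3 without the 5 libraries and 2 with a term for them. For R2 against MMS D14 the 2 became 4 with median centring, 3 with a replicate block, without the 5 libraries or with the term for them, and 2 to 3 when 1 replicate was left out. For R1 against MMS D14 the 2 became 3 with centring, the block, a fit of the 2 groups alone (Mfap4 adjusted p = 0.0373), and without or with a term for the 5 libraries. The added gene was Mfap4, and in R2 under centring also Mfap2. Under the replicate block Mfap4 passed in R1 (−0.66, adjusted p = 0.0113), R2 (−0.84, adjusted p = 0.00238) and MMS D14 against MMS D7 (0.62, adjusted p = 0.0253). Same-numbered synovium samples correlated over 0.1 in 26 of 45 pairs and 11 of 18 samples correlated best with their own number, a hint from the data and not a pairing in the design. In cartilage, Mfap2 against Control was called (1) in MMS D3 with 2 groups alone and lost (0 to 1) in MMS D14 with 1 replicate left out. It was called (1) in MMS D28 against MMS D14 with 2 groups alone (0 to 1 with 1 replicate left out). With 1 replicate left out the count was 0 to 1 in R2 against MMS D28, in R2 against R1 and for separation of MMS D28 from Control.

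The cartilage pathway counts moved from 4 to 2 with a replicate block, 14 with 2 groups alone and 2 to 2 with 1 replicate left out in MMS D3. They moved from 4 to 7 with 2 groups alone and 2 to 6 with 1 left out in MMS D7, and from 18 to 10 with median centring and 6 to 10 with 1 left out in R1. Median centring also moved the split of all synovium genes in R1 against Control from 187 higher and 533 lower to 245 and 419, and in R2 from 185 and 531 to 252 and 365. For R1 against MMS D14 it moved from 745 higher and 304 lower to 474 and 331. For cartilage R1 it moved from 578 and 534 to 624 and 308.

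The sign changed in 28 of 660 recomputed gene values, and none of these was called in the main analysis. Not all were near 0, since cartilage Mfap2 in R1 against MMS D28 was at −0.56 in the main fit. Emilin1 between MMS D7 and MMS D3 was −0.17 without the 5 libraries. Lox there was 0.023 with centring and −0.32 to 0.037 with 1 replicate left out. Lox between MMS D14 and MMS D7 was 0.22 with centring, 0.17 without the 5 libraries, and −0.19 to 0.17 with 1 replicate left out. Between R2 and R1, Emilin1 was 0.023 with centring, 0.040 with the term, 0.13 without the 5 libraries and −0.093 to 0.13 with 1 replicate left out. Lox was 0.017 with centring, 0.0072 without the 5 libraries and −0.10 to 0.15 with 1 left out. Mfap2 was 0.084 with the term, 0.14 without the 5 libraries and −0.15 to 0.14 with 1 left out. Mfap4 was 0.11 with the term, 0.26 without the 5 libraries and −0.47 to 0.26 with 1 left out. In cartilage, with 1 replicate left out, Mfap2 was −0.00128 to 0.11 in MMS D7 against Control, −1.19 to 0.073 in R1 against MMS D28 and −0.42 to 0.84 in R2 against MMS D28. It was 0.00021 in R1 against Control with centring. The cause was not tested.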

Other observations

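The ratio of Lox to Mfap2, chosen after the values were seen, was highest in MMS D3 and lowest in R1 and R2. Its mean was 0.971 in Control, then 7.37, 3.44 and 1.73 at MMS D3, MMS D7 and MMS D14, 0.350 for R1 and 0.348 for R2. The log2 ratio differed by −2.34 between R1 and MMS D14, by −2.31 between R2 and MMS D14 and by −2.03 between MMS D14 and MMS D3. The two-sided exact permutation test gave p = 0.1 for each, the smallest that 3 samples against 3 allow.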
